A study of Homo sapiens with 6 samples.

Results

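This account describes target genes of the transcription factor p53 in LNCaP prostate cancer cells, with EDA2R, the member that differed most between the groups, at its head. Of 10 listed genes, 9 had an array feature annotated with exactly 1 gene symbol, out of 16704 genes with such a feature; FDXR was not analysed here. The list was selected on general knowledge of p53 targets with earlier results of these arrays in view, EDA2R having a large difference between knockdown and control, so its differences below are a description and lend no support to a statement about p53 targets as a class. Where a gene had several features the one with the highest mean over all arrays would have been taken, but each of the 9 had 1 feature, so that step decided nothing.

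All samples were LNCaP, an androgen-responsive line derived from a prostate cancer metastasis. One group of 3 clones stably carried a scrambled short hairpin RNA and the other group of 3 clones a hairpin directed at MBD2, a reader of methylated CpG dinucleotides. Both kinds of hairpin came from a siLentGene-2 vector, and stable cells in both groups were selected by neomycin resistance. Each sample was 1 clone and 1 array of cytoplasmic RNA, so that clone-to-clone variation and hairpin effects within a group cannot be told apart, and a lower signal can come from fewer expressing cells or from less RNA per cell.

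p53 is a DNA-binding transcription factor that is held low by the ubiquitin ligase MDM2 and accumulates after DNA damage and other stresses. Its targets include genes that stop the cell cycle, genes that open the mitochondrial and the receptor-driven routes to apoptosis, genes of metabolism and autophagy, and MDM2 itself, which closes a negative feedback loop. EDA2R, also known as XEDAR, is a receptor of the tumour necrosis factor family that binds the A2 form of ectodysplasin and signals through TRAF adaptors to NF-kappaB and JNK.

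Since MBD2 reads methylated CpG dinucleotides, the sequences 250 bases upstream of the transcription start are shown for EDA2R and PMAIP1, the members whose knockdown and control values did not overlap. They come from RefSeq (GRCh38.p14), run 5′ to 3′ on the strand of the gene, end at the base before its most upstream start, and have each CpG in capitals. The EDA2R window lies on the minus strand of chrX:66639270-66639519 and the PMAIP1 window on the plus strand of chr18:59899746-59899995.
EDA2R: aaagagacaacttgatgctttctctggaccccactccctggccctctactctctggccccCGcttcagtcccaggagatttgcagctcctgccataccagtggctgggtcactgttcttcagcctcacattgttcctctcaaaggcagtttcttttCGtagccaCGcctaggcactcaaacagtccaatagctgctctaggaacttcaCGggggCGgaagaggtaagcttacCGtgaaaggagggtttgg
PMAIP1: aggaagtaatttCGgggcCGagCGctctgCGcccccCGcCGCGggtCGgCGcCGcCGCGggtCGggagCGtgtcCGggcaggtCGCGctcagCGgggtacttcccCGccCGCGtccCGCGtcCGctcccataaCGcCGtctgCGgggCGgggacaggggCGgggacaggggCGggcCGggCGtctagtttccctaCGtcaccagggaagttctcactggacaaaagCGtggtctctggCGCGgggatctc

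These promoters differed in CpG content. The EDA2R window held 6 CpG, at percentile 39.6 of the 35116 upstream windows in the table, and the window of its other listed start held 13. The PMAIP1 window held 36, at percentile 95.6, against a median of 11 over all windows, and 93.9% of all windows held at least 1 CpG. Windows of the other members held from 2 CpG, in 1 of the ZMAT3 windows, to 33, in MDM2, with 4 in BBC3 and 27 in CDKN1A. In all, 8 of the 9 measured members had a window. The p53 half-site, a degenerate decamer that reads the same on both strands, matched in 2 of 17 windows of members (11.8%), 1 of FAS and 1 of SESN1, against 5.57% of all windows. A pair of half-sites with at most 13 bases between them matched in none of the members' windows and in 0.026% of all windows. Known p53 sites of several of these genes lie outside such short windows. Methylation was not measured on these arrays.

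MBD2, the target of the hairpin, was lower in every knockdown clone than in any control. It had log2 values of 8.73, 9.24 and 9.20 in control clones 1, 2 and 3 and of 7.68, 7.84 and 7.81 in knockdown clones 1, 2 and 3, and control clone 1 was the lowest control. The log2 fold change of MBD2 was -1.28, or 41.2% of the control level, and did not pass over all genes (adjusted p = 0.111 in limma). LNCaP identity was borne by the luminal genes measured: 7 of 12 listed luminal markers had a feature, and the prostate-specific antigen gene KLK3 (8.48 to 10.4), KRT8 (10.4 to 10.8), FOXA1 (10.3 to 10.5), KRT18 (9.99 to 10.3) and HOXB13 (8.03 to 8.64) were bright on all arrays. Of 18 listed markers of other cell types 17 were measured, and their mean log2 level was 5.01 to 5.10 in the controls and 5.08 to 5.25 in the knockdown clones. The leukocyte marker PTPRC (2.43 to 2.72) was among the dimmest genes, VIM (8.29 to 9.75) and COL1A1 (7.04 to 7.44) were not dim, and KRT5 lay at 4.41 to 4.75. The liver marker ALB, which encodes serum albumin, was at 5.01, 7.46 and 5.67 in control clones 1, 2 and 3 and 8.73, 6.63 and 7.72 in knockdown clones 1, 2 and 3. The groups overlapped for ALB, and its mean difference of 1.64 on the log2 scale did not pass (adjusted p = 0.529 in limma). The part of these genes in the results below was not tested.

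Across all 16704 genes, limma's moderated test with Benjamini-Hochberg adjustment called 0% of genes at an adjusted p under 0.05, and 0 of the 9 members passed. At an unadjusted p under 0.05, limma gave 1568 genes in all and a plain equal-variance test 1409. EDA2R and PMAIP1 were the 2 members at an unadjusted p under 0.05 in limma, both lower in the knockdown clones, and the plain test gave 0 members at that level. Over all genes 5.45% were lower and 3.93% higher at that level. The same 2 members were those whose groups did not overlap, where 8.87% of all genes lay wholly lower and 6.57% wholly higher. With 9 members, these counts are too small to set the list apart from the background. Of the 9 differences 4 were above 0 (44.4%, all genes 48.7%) and 5 below. Their median log2 fold change (knockdown minus control) was -0.049, against -0.0043 over all genes. The members' median turned to 0.0040 after repeated quantile normalization and 0.0029 after cyclic loess. Leaving out control clone 2 gave 0 members at an unadjusted p under 0.05, and leaving out control clone 3, knockdown clone 2 or knockdown clone 3 gave 1. The share of all genes at that level, in both directions together, fell too. It was 6.78%, 6.97%, 7.44% and 6.51% in these settings in turn, against 9.39% with all arrays. The count of members without overlap was 3 after repeated quantile normalization and 3 after cyclic loess, both with all arrays. It was 4 without control clone 1 and 4 without knockdown clone 3. With 1 clone fewer more genes separate by order alone, and the share of all genes was not counted in these settings.

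**Figure D1:**
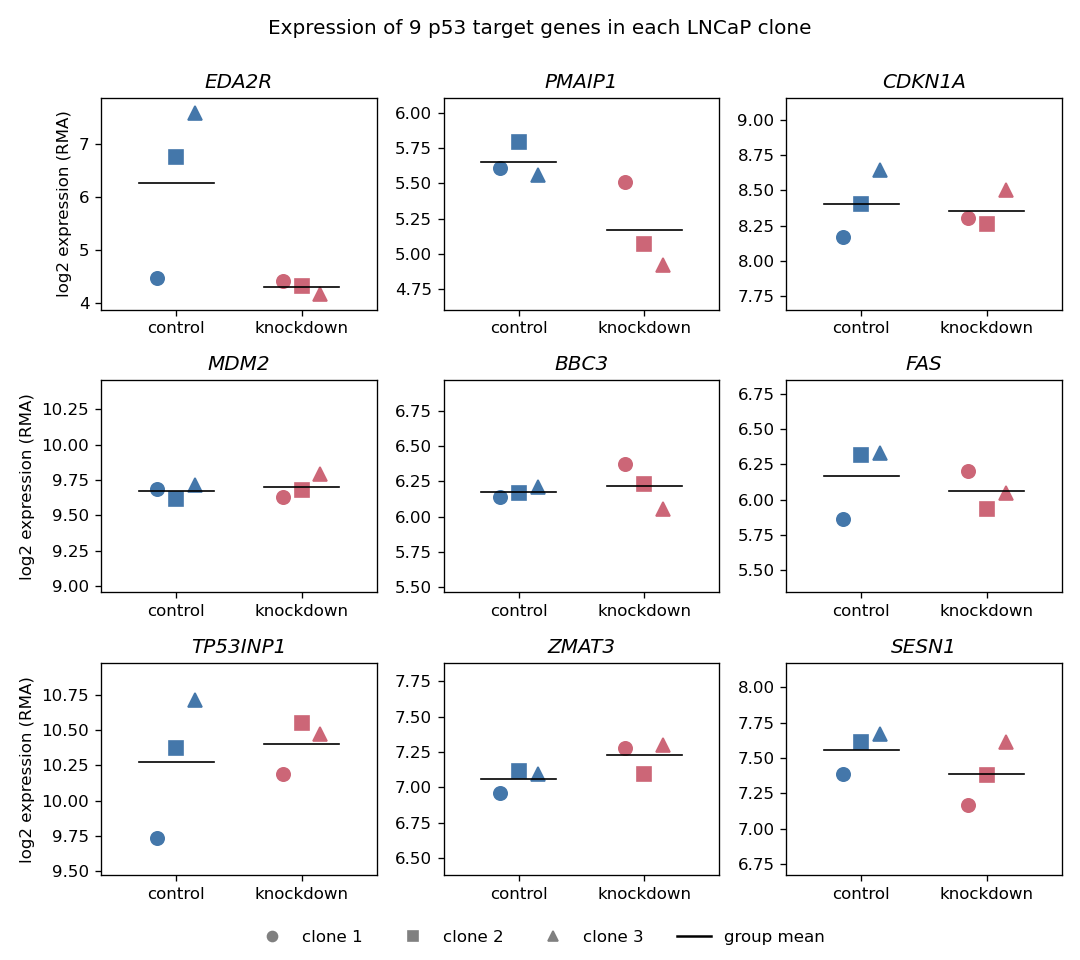
Log2 expression (vertical axis, RMA values as deposited) of the 9 measured p53 target genes in the 3 control clones (blue) and the 3 knockdown clones (red); symbols give the clone number and the line is the group mean. The EDA2R axis covers a wider range than the others, which share 1 width; EDA2R in control clone 1 (4.49) sits beside the knockdown clones, while control clones 2 and 3 (6.76 and 7.59) sit far above them.

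EDA2R (feature 8173299; chrX:66595637-66639269 in RefSeq, GRCh38.p14) split the control clones rather than giving a uniform control level. Its log2 value was 4.49 in control clone 1, 6.76 in control clone 2 and 7.59 in control clone 3, against 4.43, 4.34 and 4.17 in knockdown clones 1, 2 and 3. Control clones 2 and 3 were high, and control clone 1 lay just above knockdown clone 1, so that a small gap alone kept the groups apart. Control clone 2 stood 5.45-fold and control clone 3 9.71-fold above the mean of the knockdown clones, and control clone 1 1.13-fold. The 4 low values lay under the lower quartile of all genes on their arrays (4.70 to 4.81), at the dim end of the signal range, where array fold changes are compressed.

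The mean difference of EDA2R ranked 2 among the decreases of all 16704 genes. Its log2 fold change was -1.97 (SE 0.68, 95% interval -3.57 to -0.37), from 6.28 ± 1.61 (SD, n = 3) in the controls to 4.31 ± 0.13 (SD, n = 3) in the knockdown group, or 25.6% of the control level. By p it ranked 857, with an adjusted p of 0.435 in limma over all genes. The range among the 3 controls, 3.11 log2 units or 8.61-fold, ranked 8 of 16704, where the median gene had 0.192, while the range among the knockdown clones was 0.255 (median gene 0.246). The difference rested on which controls were used. Without control clone 1 it was -2.86 and EDA2R passed over all genes, as 1 of 7 genes (adjusted p = 0.0343 in limma). Without control clone 3 it was -1.31 (adjusted p = 0.742) and without control clone 2 -1.73 (0.779). Over the alternatives run the adjusted p lay between 0.0343 and 0.779, and the direction was lower in 16 of 16. Since the groups did not overlap, leaving out a clone could not turn the direction, and several alternatives leave the fold change unchanged.

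Measured genes beside EDA2R on chromosome X did not share its split of the controls. These neighbours were looked up after the values of EDA2R had been seen. Of the 3 nearest measured genes on each side, VSIG4 had the widest control range (0.454) and EFNB1 the narrowest (0.0907). MSN, VSIG4, YIPF6, STARD8 and EFNB1 had log2 fold changes from -0.15 to 0.040, and the largest difference among the neighbours belonged to HEPH, a copper-dependent iron oxidase. HEPH was at 3.63, 3.80 and 3.69 in control clones 1, 2 and 3 and at 3.65 in knockdown clone 1, but at 5.12 and 5.58 in knockdown clones 2 and 3 (log2 fold change 1.08, adjusted p = 0.499 in limma). HEPH thus set knockdown clones 2 and 3 apart, where EDA2R set control clones 2 and 3 apart. Knockdown clones 2 and 3 were also the most alike pair of arrays over all genes (SD of their difference 0.185).

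The genes whose pattern over the 6 arrays was most like that of EDA2R, by Pearson's correlation, were TBC1D20 (r = 0.991), a Rab GTPase-activating protein, ABHD10 (0.986), CEP192 (0.984), a centrosome scaffold, EIF2AK4 (0.984), the amino-acid-sensing kinase GCN2, and TRIM21 (0.982), a ubiquitin ligase that binds antibody Fc. In all, 47 genes had a correlation above 0.95. These are descriptions over 6 points that fall into high controls and low rest, which any gene with the same split shares. In TRIM21 the log2 values were 6.30, 6.68 and 6.99 in control clones 1, 2 and 3 and 6.19, 6.25 and 6.26 in knockdown clones 1, 2 and 3, the same order of controls as in EDA2R on a much smaller scale.

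The other receptor among the members is FAS, the death receptor that recruits FADD and caspase-8 (feature 7929032; chr10:88964050-89017059). Its log2 value was 5.86 in control clone 1 and 6.31 and 6.33 in control clones 2 and 3, against 6.21, 5.93 and 6.05 in knockdown clones 1, 2 and 3. Control clone 1 was again the lowest control, here below all knockdown clones, and the groups overlapped. The log2 fold change was -0.11 (95% interval -0.44 to 0.23, adjusted p = 0.869 in limma).

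PMAIP1, which encodes the BH3-only protein NOXA that neutralises the survival protein MCL1 (feature 8021470; chr18:59899996-59904305), was lower in knockdown clones 2 and 3. It stood at 5.61, 5.79 and 5.56 in control clones 1, 2 and 3 and at 5.51, 5.07 and 4.92 in knockdown clones 1, 2 and 3. Knockdown clone 1 lay 0.15 below the control mean, and clones 2 and 3 lay 0.58 and 0.73 below it. Unlike EDA2R the spread was thus on the knockdown side: the controls ranged over 0.231 and the knockdown clones over 0.587. This split is not particular to PMAIP1. Over all genes the SD of the difference was 0.185 between knockdown clones 2 and 3, and 0.316 and 0.350 between knockdown clone 1 and each of them. Knockdown clone 1 was the highest knockdown clone in 51.2% of all genes and the lowest in 32.6%.

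The difference of PMAIP1 did not pass over all genes. Its log2 fold change was -0.49 (SE 0.16, 95% interval -0.85 to -0.12), or 71.3% of the control level, with an adjusted p of 0.400 in limma. With array weights, which weighted knockdown clone 1 at 0.252 and clone 2 at 3.43, PMAIP1 passed (log2 fold change -0.61, adjusted p = 0.0351), and without knockdown clone 1 it came close (-0.66, adjusted p = 0.0525). Without knockdown clone 3 it was -0.36 (adjusted p = 0.759). Over all genes 325 passed with array weights and 70 without knockdown clone 1, against 0 in the main fit. Measured neighbours of PMAIP1 on chromosome 18, chosen by position, had log2 fold changes from -0.11 in LMAN1 to 0.069 in RNF152.

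BBC3, which encodes PUMA, a BH3-only protein that binds all the main survival proteins of the BCL2 family (feature 8037872; chr19:47220824-47232860), differed little. Its values were 6.14, 6.17 and 6.21 in control clones 1, 2 and 3 and 6.37, 6.23 and 6.06 in knockdown clones 1, 2 and 3. The controls were close to each other and the knockdown clones lay on both sides of them. The log2 fold change was 0.047 (95% interval -0.18 to 0.28), and its sign turned without knockdown clone 1 (-0.029). PMAIP1 and BBC3, whose products act at the same step, lay differently in single clones. In knockdown clone 3 PMAIP1 lay 0.73 and BBC3 0.12 below the control mean, and in knockdown clone 1 PMAIP1 lay 0.15 below and BBC3 0.20 above it.

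**Figure D2:**
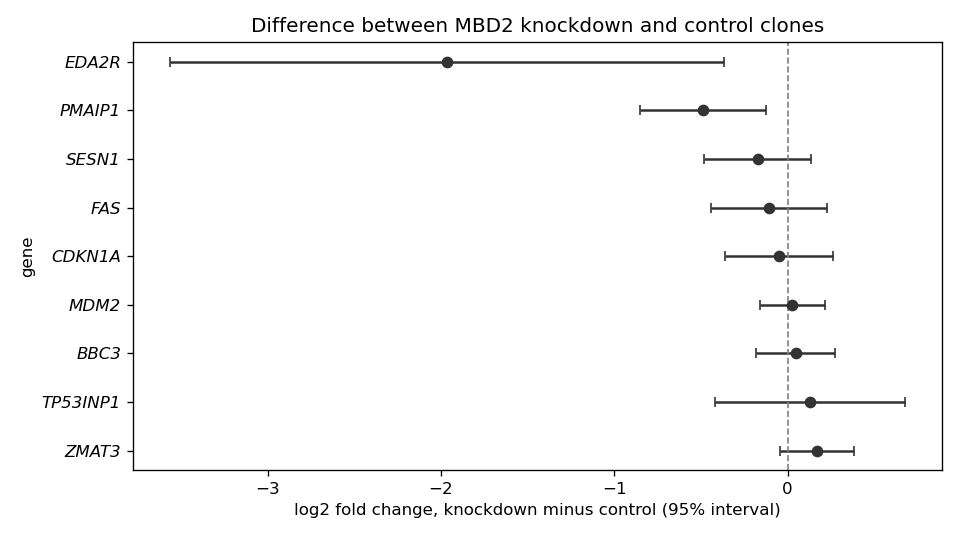
Log2 fold change (horizontal axis, knockdown minus control) of each measured member with its 95% interval from limma, 3 clones a group; the dashed line marks no difference. Only the intervals of EDA2R (-3.57 to -0.37) and PMAIP1 (-0.85 to -0.12) do not reach 0, before adjustment over all genes, and the 7 other members lie between -0.17 and 0.17.

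CDKN1A encodes p21, the inhibitor of cyclin-dependent kinases through which p53 halts the cell cycle (feature 8119088; chr6:36676463-36687332). It stood at 8.17, 8.40 and 8.64 in control clones 1, 2 and 3 and at 8.31, 8.26 and 8.50 in knockdown clones 1, 2 and 3. All knockdown values fell inside the range of the controls. The log2 fold change was -0.049 (95% interval -0.36 to 0.26, adjusted p = 0.944 in limma), and its sign turned under quantile normalization (0.0040), cyclic loess (0.0029) and without control clone 3 (0.071).

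MDM2, the ubiquitin ligase of p53 and its own feedback target (feature 7956989; chr12:68808172-68850686), was the most even member. Its values were 9.69, 9.62 and 9.71 in control clones 1, 2 and 3 and 9.63, 9.68 and 9.79 in knockdown clones 1, 2 and 3. The groups overlapped, with a log2 fold change of 0.027 (95% interval -0.16 to 0.22). Its sign turned without control clone 2 (-0.00041) and without knockdown clone 3 (-0.020).

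TP53INP1, a stress protein that promotes p53 phosphorylation and autophagy (feature 8151890; chr8:94925972-94949378), varied most among the controls after EDA2R. It stood at 9.73 in control clone 1, 10.37 in clone 2 and 10.71 in clone 3, and at 10.19, 10.55 and 10.47 in knockdown clones 1, 2 and 3. The order of the controls was the same as in EDA2R, but the knockdown clones lay between control clones 1 and 3. The control range of 0.975 ranked 215 of 16704. The log2 fold change was 0.13 (95% interval -0.42 to 0.68) and turned to -0.14 without control clone 1.

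ZMAT3, a zinc finger protein that binds RNA and acts in splicing and RNA stability (feature 8092230; chr3:179017223-179072513), had the largest increase of the members. Its values were 6.96, 7.12 and 7.09 in control clones 1, 2 and 3 and 7.28, 7.10 and 7.30 in knockdown clones 1, 2 and 3. Knockdown clones 1 and 3 lay above all controls and knockdown clone 2 lay within their range. The log2 fold change was 0.17 (95% interval -0.045 to 0.38, adjusted p = 0.632 in limma).

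SESN1, which encodes sestrin 1, a stress protein that restrains mTORC1 (feature 8128698; chr6:108984309-109094846), had the opposite tilt. It stood at 7.39, 7.62 and 7.67 in control clones 1, 2 and 3 and at 7.17, 7.38 and 7.61 in knockdown clones 1, 2 and 3. Clone 1 was the lowest and clone 3 the highest in each group, and the groups overlapped. The sample titles number the replicates and do not say whether same-numbered clones belong together. The log2 fold change was -0.17 (95% interval -0.48 to 0.14, adjusted p = 0.746 in limma).

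Among the controls, clone 1 was low in most members. It was the lowest control in 7 of 9 members (EDA2R, CDKN1A, BBC3, FAS, TP53INP1, ZMAT3 and SESN1) and the highest in 0, while control clone 3 was the highest in 7. Over all genes control clone 1 was the lowest control in 32.1% and control clone 3 the highest in 30.5%. In BBC3 the order rests on a control range of 0.069. In the list of other p53 targets, which shares no gene with the members, control clone 1 was the lowest control in 17 of 38 genes (44.7%), and in the list of p53 regulators in 17 of 27 (63.0%). It was the lowest control in 5 of 7 luminal markers (71.4%). Among the receptors of the tumour necrosis factor family it was instead the highest control in 12 of 17 (70.6%), and among the CDK inhibitors and their partners in 13 of 27 (48.1%), against 38.0% of all genes. The median deviation of the 9 members from the control mean was -0.17, 0.060 and 0.11 in control clones 1, 2 and 3 and -0.085, -0.14 and 0.051 in knockdown clones 1, 2 and 3. MBD2 was also lowest in control clone 1 among the controls; its part in this order was not tested. These counts describe 3 clones, were noticed after the values had been seen, and carry no test.

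**Figure D3:**
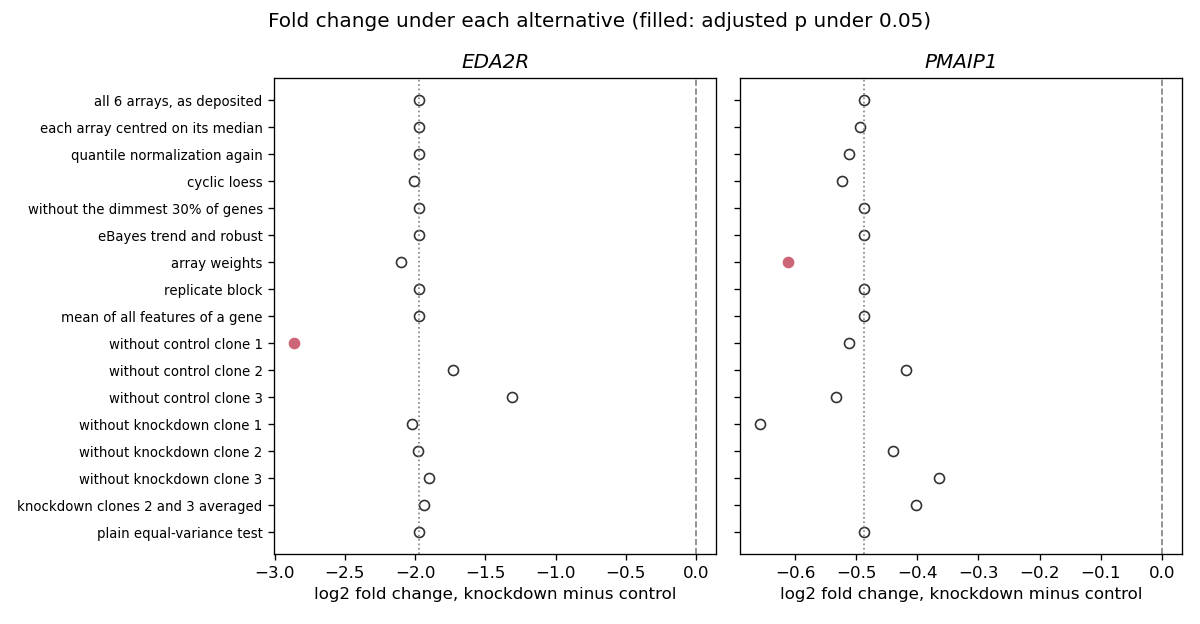
Log2 fold change (horizontal axis, knockdown minus control) of EDA2R and PMAIP1 under each setting (vertical axis); filled points have an adjusted p under 0.05 over all genes, the dotted line is the value from all 6 arrays and the dashed line is 0. EDA2R ranges from -2.86 without control clone 1, the filled point, to -1.31 without control clone 3, and PMAIP1 passes with array weights only.

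Other genes of the p53 network were read from lists, and 0 genes of any list passed at an adjusted p under 0.05 in limma with all arrays. Among 38 measured of 40 further p53 targets, 11 means were higher (28.9%, all genes 48.7%) and 27 lower after knockdown. Their median difference was -0.060 on the log2 scale, -0.026 after quantile normalization and -0.028 after cyclic loess. At an unadjusted p under 0.05 there was 1 higher (2.63%) and 1 lower (2.63%), under the background shares, and the lower one was lost without control clone 1 or control clone 2. In the main fit the higher one was LIF, a cytokine of the interleukin-6 family. It was at 4.03, 4.03 and 4.28 in control clones 1, 2 and 3 and 4.64, 4.47 and 4.36 in knockdown clones 1, 2 and 3. LIF was dim in both groups, under the lower quartile of each array. Without the dimmest 30% of genes the list had 0 higher. The lower one was CYFIP2, a subunit of the WAVE complex of actin assembly, at 7.85, 7.65 and 7.51 in the controls and 6.57, 7.51 and 7.20 in knockdown clones 1, 2 and 3. CYFIP2 was lowest in knockdown clone 1, and knockdown clone 2 all but touched control clone 3. TNFRSF10B, the TRAIL receptor DR5, came next by p with a log2 fold change of -0.17 and an adjusted p of 0.555.

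Of the p53 family and its regulators, 27 of 30 were measured, with 8 higher (29.6%, all genes 48.7%) and 19 lower means. Their median was -0.052, which moved to -0.0052 after quantile normalization and -0.0027 after cyclic loess. At an unadjusted p under 0.05, 4 genes were lower (14.8%, background 5.45%) and 0 higher. The lower count was 2 after quantile normalization, after cyclic loess, with the replicate block and when control clone 2 or knockdown clone 2 was left out. It was 1 when control clone 3 or knockdown clone 3 was left out or when knockdown clones 2 and 3 were averaged, 5 without knockdown clone 1 and 7 with array weights. In these last 2 settings the share of all genes at that level, in both directions together, was 16% and 19.9%, against 9.39% with all arrays. There was 1 higher gene after quantile normalization, after cyclic loess, with array weights, without knockdown clone 1 and in the plain equal-variance test. SIRT1, a deacetylase of p53, was at 7.34, 7.39 and 7.71 in control clones 1, 2 and 3 and 7.15, 7.00 and 6.94 in knockdown clones 1, 2 and 3 (log2 fold change -0.45, adjusted p = 0.337 in limma). The checkpoint kinases CHEK2 and CHEK1, which phosphorylate p53, had -0.23 and -0.40. CHEK1 was at 8.19 in knockdown clone 1, within the control range of 8.17 to 8.25, and at 7.66 and 7.59 in clones 2 and 3. It passed without knockdown clone 1, as 1 of 70 genes, and with array weights, as 1 of 325. MDM4, the partner of MDM2, had 0.038.

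The ligand and adaptor of the receptor family to which EDA2R belongs had values that overlapped between the groups. EDA, which encodes ectodysplasin, had a log2 fold change of 0.12 (5.73 to 5.94 in the controls and 5.83 to 6.06 in the knockdown clones). EDAR, the receptor of the A1 form, had 0.11, and its adaptor EDARADD had -0.075, both dim. Of 16 measured of 18 genes in this signalling list 5 means were higher (31.2%, all genes 48.7%) and 11 lower. Their median was -0.063, from -0.11 without control clone 1 to -0.021 with knockdown clones 2 and 3 averaged. At an unadjusted p under 0.05, 1 gene was lower (6.25%, background 5.45%). That gene was NFKB1, the p105 precursor of NF-kappaB p50, at 8.03, 7.82 and 8.07 in control clones 1, 2 and 3 and 7.56, 7.32 and 7.44 in knockdown clones 1, 2 and 3. All knockdown values of NFKB1 lay below all controls (log2 fold change -0.53, adjusted p = 0.229 in limma), and it passed with array weights, as 1 of 325 genes. The inhibitor NFKBIA had -0.18 and the kinase gene CHUK -0.15.

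Among 17 measured receptors of the tumour necrosis factor family, 10 means were higher (58.8%, all genes 48.7%) and 7 lower. Their median was 0.085, and -0.011 over the 14 left without the dimmest 30% of genes. At an unadjusted p under 0.05 there was 1 higher and 1 lower (5.88% each). Without control clone 1 there were 2 higher and 0 lower. TNFRSF19, also called TROY and a close relative of EDA2R and EDAR, was higher, at 5.73, 6.39 and 6.15 in control clones 1, 2 and 3 and 6.83, 6.56 and 7.27 in knockdown clones 1, 2 and 3 (log2 fold change 0.80, adjusted p = 0.341 in limma). TNFRSF19 and EDA2R thus lay on opposite sides, with control clone 1 the lowest control in both. TNFRSF10A, the TRAIL receptor DR4, had -0.28, and CD40 had 0.22 at a dim level. Of 13 measured genes listed as paralogs or partners of the members, 7 means were higher (53.8%, all genes 48.7%) and 6 lower. Their median was 0.021, and from -0.062 without knockdown clone 1 to 0.044 with knockdown clones 2 and 3 averaged. After TNFRSF19, FDX1, an electron carrier that FDXR reduces, had -0.34, and CDKN1B, which encodes the CDK inhibitor p27, had -0.22.

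In the apoptosis machinery on which FAS, PMAIP1 and BBC3 act, 25 of 29 genes were measured. Of these, 11 means were higher (44%, all genes 48.7%) and 14 lower, with a median of -0.028, which turned to 0.0061 without knockdown clone 2. The effector caspase gene CASP6 was the 1 gene at an unadjusted p under 0.05 (4.00%), at 6.23, 5.96 and 6.30 in control clones 1, 2 and 3 and 5.73, 5.71 and 5.65 in knockdown clones 1, 2 and 3. Its groups did not overlap (log2 fold change -0.47, adjusted p = 0.272 in limma). APAF1, the apoptosome scaffold and itself a p53 target, had -0.18, and FASLG, the ligand of FAS, had 0.25, with the high value in knockdown clone 1 (4.40 against 3.62 to 3.85 elsewhere).

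The list with the lowest median was that of CDK inhibitors and their cyclin, CDK and RB-family partners, on which p21 acts. Of 27 measured genes 24 means were lower and 3 higher (11.1%, all genes 48.7%). Their median was -0.24 and lay between -0.35 and -0.17 without any 1 clone. At an unadjusted p under 0.05, 10 were lower (37.0%, background 5.45%) and 0 higher. That count was 17 without knockdown clone 1, 6 without knockdown clone 3 and 19 with array weights, under which 4 genes of the list passed over all genes. The share of all genes at that level, in both directions together, moved the same way. It was 9.39% with all arrays, 16% without knockdown clone 1, 6.51% without knockdown clone 3 and 19.9% with array weights. CCNB1, the mitotic cyclin B1, was at 9.19, 9.01 and 9.04 in control clones 1, 2 and 3 and 8.76, 8.45 and 8.34 in knockdown clones 1, 2 and 3. CCNB1 had a log2 fold change of -0.56 and did not overlap between groups. It passed without knockdown clone 1, as 1 of 70 genes, and with array weights, as 1 of 325. The S phase and mitosis cyclin CCNA2 had -0.54 and LIN9, a subunit of the DREAM and MYB-MuvB complexes, had -0.41 (adjusted p = 0.229 and 0.272). Relative to the control mean, the list lay at a median of -0.065, -0.28 and -0.37 in knockdown clones 1, 2 and 3, and CDKN1A in the same clones lay -0.098, -0.14 and 0.095 from its control mean. Knockdown clone 1 stood apart from clones 2 and 3 over all genes too. These cyclins are cell division genes whose lower level in these clones was known when the list was made, so their count is no independent evidence.

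**Figure D4:**
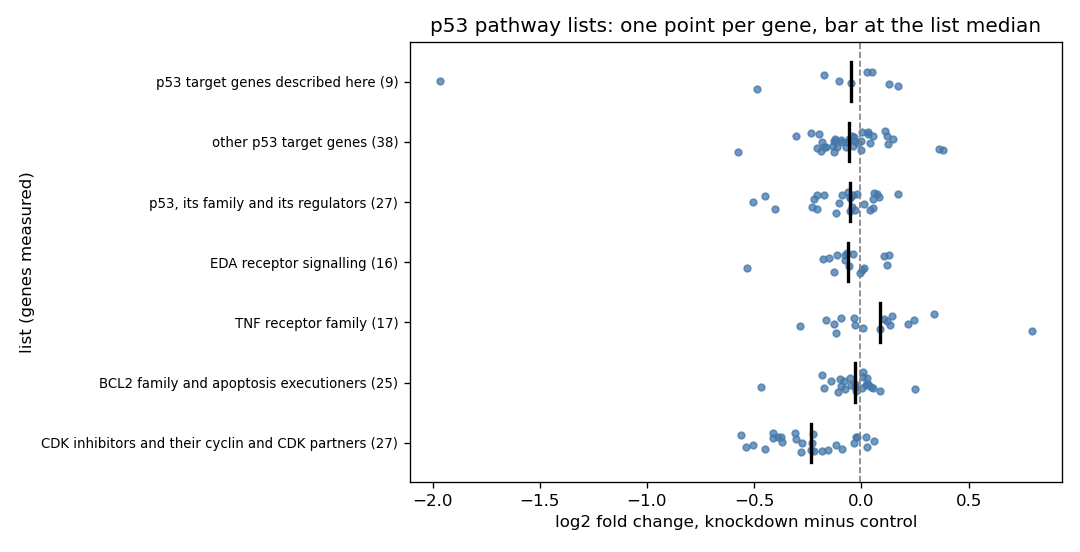
Log2 fold change (horizontal axis, knockdown minus control) of each measured gene in the p53-related lists (vertical axis, with the number of genes measured); 1 point per gene, the bar is the list median and the dashed line the median of all genes. EDA2R is the outlying point at -1.97, and the list of CDK inhibitors and partners has the lowest median, -0.24.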

How the data were processed

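Arrays of 6 LNCaP clones, 3 per group by their titles, were used. The deposited values are log2 expression by feature. Per the submitters' processing notes the authors used RMA, oligo and limma; their versions and filters were not given in the sources used here. The scale was read from the range of the values. Values entered as deposited.

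Of 19712 features 17334 had 1 symbol, 1521 several and 857 none listed; 1 feature per gene (highest mean) gave 16704 genes. The platform annotation supplied symbols, and RefSeq (GRCh38.p14) gene positions, matched by gene identifier. Knockdown was compared with control by limma 3.58.1 (lmFit, eBayes without trend, R 4.3.3), adjusted by Benjamini-Hochberg over all genes; an adjusted p under 0.05 passed. Differences are knockdown minus control with 95% intervals. No dim genes were removed. In 10 draws of artificial data in which 200 of 16704 genes differed, this fit recovered 89.4% of those changed 2-fold. On the real arrays MBD2, at 41.2% of the control level, did not pass (adjusted p = 0.111 in limma). The recovered share therefore need not hold for these clones.

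The members, lists and alternatives were chosen with earlier results of these data known. All members were named, and of each list the 3 genes with the smallest p, besides MDM4, EDA, EDAR and EDARADD; KRT8, FOXA1, PTPRC and VIM were chosen after their values were seen. Listed genes without a single-symbol feature were not analysed here. Promoter windows and neighbours were read in Python 3.11.15. The number of arrays limits precision, and since the design text calls the samples clones, p-values measure the spread between clones.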

Additional observations from a re-analysis of the deposited data

How the results depend on the processing

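In 16 alternatives EDA2R, PMAIP1, FAS and SESN1 kept a negative and ZMAT3 a positive difference. Part of this was fixed in advance. The dim-gene filter, eBayes with trend, the replicate block, the mean of features and the plain test left every member's fold change as it was. For EDA2R and PMAIP1, whose groups did not overlap, leaving out or averaging clones could not turn the sign. The count of members past an adjusted p under 0.05 (0 with all arrays) was 1 with array weights (PMAIP1) and 0 to 1 without any 1 clone (EDA2R without control clone 1). Members at an unadjusted p under 0.05, 2 with all arrays, were 0 in the plain equal-variance test, 1 with knockdown clones 2 and 3 averaged and 0 to 2 without any 1 clone. The share of all genes at that level was 9.39% with all arrays, 8.44% in the plain test and 6.62% with the clones averaged. It was 6.51% to 16% without any 1 clone. Members without overlap were 2 with all arrays as deposited, and 3 after quantile normalization and after cyclic loess, which keep all arrays. They were 2 to 4 without any 1 clone, where fewer clones alone make overlap rarer. The share of all genes was not counted in these settings. CDKN1A turned to 0.00399 after quantile normalization and 0.00289 after cyclic loess, and ran from -0.168 to 0.0711 without any 1 clone. In the same way TP53INP1 ran from -0.138 to 0.349, MDM2 from -0.0198 to 0.063 and BBC3 from -0.0292 to 0.129. The cause of these changes was not tested, beyond the fewer clones. With the replicate number as a replicate block, 0 members passed and 2 had an unadjusted p under 0.05. The titles do not say whether the numbers pair the clones. Deviations of same-numbered clones correlated across genes at -0.025, -0.19 and 0.17, and 1 of 3 control clones correlated best with its own number. With 3 clones a group these values cannot settle whether the numbers pair them. Over all genes the block gave 0 calls and array weights 325. Leaving out knockdown clone 1 gave 70, and leaving out control clone 1 gave 7.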
